A study of Mus musculus with 12 samples.

Results

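The NF-kB genes of regulatory T cells (Treg) were examined here as open chromatin, through the accessible regions in and around 9 genes: the subunit genes Rel, Rela, Relb, Nfkb1 and Nfkb2, the inhibitor genes Nfkbia, Nfkbid and Nfkbie, and Tnfaip3, which encodes the ubiquitin editor A20. A region was taken as a member when it overlapped the body of 1 of these genes, extended by 20 kb on each side, in the mouse genome build mm9. This rule used positions and no measured value, and it found 116 of the 118680 open chromatin regions (OCR, numbered as the authors numbered them). Nfkb1 held 41 of them, Nfkbid and Tnfaip3 14 each, Rel 13, Nfkbia and Nfkbie 8 each, Nfkb2 7, Relb 6 and Rela 5. The windows also hold parts of other genes, among them Pus10 (Rel), Sipa1 (Rela), Clasrp (Relb), Manba (Nfkb1), Gbf1 (Nfkb2), Tyrobp (Nfkbid) and Hsp90ab1 (Nfkbie), so a region need not belong to the gene whose window holds it. Accessibility was measured by ATAC-seq, in which the transposase Tn5 inserts sequencing adapters into DNA that is not covered by nucleosomes, and it is given as reads scaled to the length of the region and to the reads counted on all regions (FPKM). YFP+ Treg from the spleen were sorted from mice that carry Foxp3-YFP-Cre alone (WT) or Foxp3-YFP-Cre with a floxed Ikzf1 allele (Ikzf1-cko), so that both genotypes express Cre and YFP from Foxp3 and Ikaros is removed once Foxp3 is expressed. Cells were used directly ex vivo or after 4 hr on plate-bound anti-CD3 and anti-CD28 (stimulated); per the study's methods the sorted cells were divided between both states, so an ex vivo and a stimulated library can stem from the same sort, and the tests treat them as separate. Each of the 4 groups had 3 libraries, 12 in all, and each fold change was tested with edgeR's quasi-likelihood test on the read counts.

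NF-kB proteins are dimers of Rel-family subunits that are held in the cytoplasm of resting cells by IkB proteins. Signals from the T cell receptor and CD28 lead to activation of the IkB kinase, after which IkB is degraded and the dimers enter the nucleus, where they induce target genes that include those of their own inhibitors, IkBα (Nfkbia) and A20 (Tnfaip3). In the Treg lineage c-Rel (Rel) is known for its part in the induction of Foxp3, and Ikaros and NF-kB recognise DNA motifs that share a core of GGGAA.

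The sequences of 4 regions on which the results below turn, and of the DNA just upstream of Nfkbia, were read from mm9. Capitals mark GGGAA on either strand, matches to the 10-base kB consensus and matches to TGANTCA, the motif of AP-1. OCR_99649 was the member region that opened most on stimulation, and its central 300 bases lie downstream of Nfkbid at chr7:31214124-31214423 on the forward strand.
OCR_99649: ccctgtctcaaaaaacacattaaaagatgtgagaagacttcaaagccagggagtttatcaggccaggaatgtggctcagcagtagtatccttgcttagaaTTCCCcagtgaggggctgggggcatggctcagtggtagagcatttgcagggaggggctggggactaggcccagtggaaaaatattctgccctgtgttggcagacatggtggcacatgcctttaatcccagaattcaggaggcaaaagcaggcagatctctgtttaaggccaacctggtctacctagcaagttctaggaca
OCR_9711 closed on stimulation with the smallest adjusted p of all member regions, and its central 300 bases lie downstream of Tnfaip3 at chr10:18719180-18719479 on the forward strand.
OCR_9711: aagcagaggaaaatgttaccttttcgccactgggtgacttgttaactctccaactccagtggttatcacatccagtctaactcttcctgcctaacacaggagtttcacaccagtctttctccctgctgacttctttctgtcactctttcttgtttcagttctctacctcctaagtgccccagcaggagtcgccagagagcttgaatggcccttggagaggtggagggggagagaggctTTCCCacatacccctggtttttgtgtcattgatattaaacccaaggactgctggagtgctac
OCR_75062 was the member region whose response to stimulation was called different between the genotypes, and its central 300 bases lie in an intron of Nfkb1 at chr3:135270087-135270386 on the forward strand.
OCR_75062: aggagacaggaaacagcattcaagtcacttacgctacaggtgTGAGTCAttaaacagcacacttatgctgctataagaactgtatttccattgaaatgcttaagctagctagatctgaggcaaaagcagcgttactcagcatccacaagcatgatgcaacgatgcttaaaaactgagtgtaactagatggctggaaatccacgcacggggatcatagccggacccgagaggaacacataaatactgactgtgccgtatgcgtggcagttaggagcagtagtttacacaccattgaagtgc
OCR_23994 was the other member region called between the stimulated genotypes, and its central 300 bases lie downstream of Nfkbia at chr12:56589696-56589995 on the forward strand.
OCR_23994: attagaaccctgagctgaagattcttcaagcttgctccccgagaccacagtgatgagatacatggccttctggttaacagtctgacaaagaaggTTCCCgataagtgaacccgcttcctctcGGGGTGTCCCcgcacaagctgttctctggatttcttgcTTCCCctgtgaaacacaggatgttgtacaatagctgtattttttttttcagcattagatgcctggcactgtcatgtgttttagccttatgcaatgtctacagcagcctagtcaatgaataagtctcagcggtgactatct
The last sequence holds the 300 bases before the annotated start of Nfkbia, the gene with the most accessible start site of the 9, at chr12:56593635-56593934 on the reverse strand, which is that of the gene.
Nfkbia upstream: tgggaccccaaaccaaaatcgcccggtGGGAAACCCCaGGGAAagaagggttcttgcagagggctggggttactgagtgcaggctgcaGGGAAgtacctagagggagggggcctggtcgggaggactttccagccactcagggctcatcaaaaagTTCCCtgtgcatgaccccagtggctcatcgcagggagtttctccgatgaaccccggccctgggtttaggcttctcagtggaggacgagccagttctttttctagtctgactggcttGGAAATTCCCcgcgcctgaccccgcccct
Counted from the first base of each sequence, a match to the kB consensus began at base 123 of OCR_23994 (GGGGTGTCCC), at base 28 upstream of Nfkbia (GGGAAACCCC) and at base 272 upstream of Nfkbia (GGAAATTCCC). OCR_75062 held TGAGTCA at base 43. OCR_99649 and OCR_9711 each held TTCCC, the reverse complement of GGGAA, once, and no match to the kB consensus within these 300 bases.

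Reads counted on regions ranged from 4808916 to 8596567 in the 6 WT libraries and from 9221901 to 15355521 in the 6 Ikzf1-cko libraries, so depth and genotype cannot be told apart. The stimulated WT libraries stood apart in how their reads were spread, with 40.7% to 43.5% of reads in the strongest 10% of regions against 49.7% to 56.6% in the other libraries. Of the Treg and T cell markers, the start sites of Foxp3, Il2ra, Ctla4, Tnfrsf18, Cd4 and Cd3e were accessible in all 12 libraries, Foxp3 between 8.89 and 18.0 FPKM, whereas no region covered a start site of Ikzf2. No region covered a start site of the B cell genes Cd79a, Ms4a1 and Pax5 or of Lyz2, Csf1r, Itgam, Klf1, Epor and Ncr1. Start-site regions of Cd8a, Cd8b1, Cd14, Gata1 and Klrb1c ranged from 1.67 to 14.7 FPKM. The CD8 T cell genes were lower in Ikzf1-cko than in WT Treg with no overlap: Cd8a measured 6.44 to 9.49 FPKM in WT and 1.67 to 5.68 FPKM in Ikzf1-cko ex vivo, and 8.13 to 10.8 against 4.31 to 7.10 FPKM after stimulation. Cd8b1 measured 11.4 to 14.7 against 8.78 to 9.12 FPKM ex vivo and 11 to 12.6 against 9.01 to 10.4 FPKM after stimulation. Gata1 was also lower without overlap ex vivo, at 7.06 to 9.46 against 3.85 to 5.36 FPKM, but overlapped after stimulation. Of all tested regions 21.0% were lower in Ikzf1-cko Treg without overlap ex vivo and 34.0% after stimulation. Such a difference was thus not particular to these genes. The part of these marker differences in the genotype differences below was not tested. The counts do not check the deletion itself, since each of the 31 regions over Ikzf1 held at least 7 reads in every Ikzf1-cko library and 2 of them overlapped an exon.

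The start-site regions of the 9 genes formed an order of accessibility that was headed by the inhibitor gene Nfkbia and the subunit gene Relb in all 4 groups. In ex vivo WT Treg the Nfkbia start site (OCR_23996) measured 77.8, 74.6 and 82.8 FPKM and that of Relb (OCR_99099) 71.5, 73.1 and 77.0 FPKM. These groups of libraries overlapped. They were followed by Rel (OCR_16959) at 51.7, 56.3 and 59.1 FPKM, all below Relb, and by Tnfaip3 (OCR_9718) at 51.1, 49.4 and 58.6 FPKM, which overlapped Rel. Nfkb1, Nfkb2, Nfkbie and Nfkbid then stepped down from a mean of 42.3 to 31.0 FPKM, each overlapping the next, and Rela (OCR_57697), the gene of the p65 subunit, came last at 18.3, 22 and 23.0 FPKM. Among the 13211 tested start-site regions the Nfkbia start site stood at the 94.9th percentile in ex vivo WT Treg and the Rela start site at the 49.2nd. In ex vivo Ikzf1-cko Treg each start site was separate from the next in the order, and Nfkbid and Nfkbie had changed places. After stimulation Nfkbid moved up to the fourth place in both genotypes, while Nfkb1, Nfkb2 and Tnfaip3 overlapped one another in WT.

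**Figure D1:**
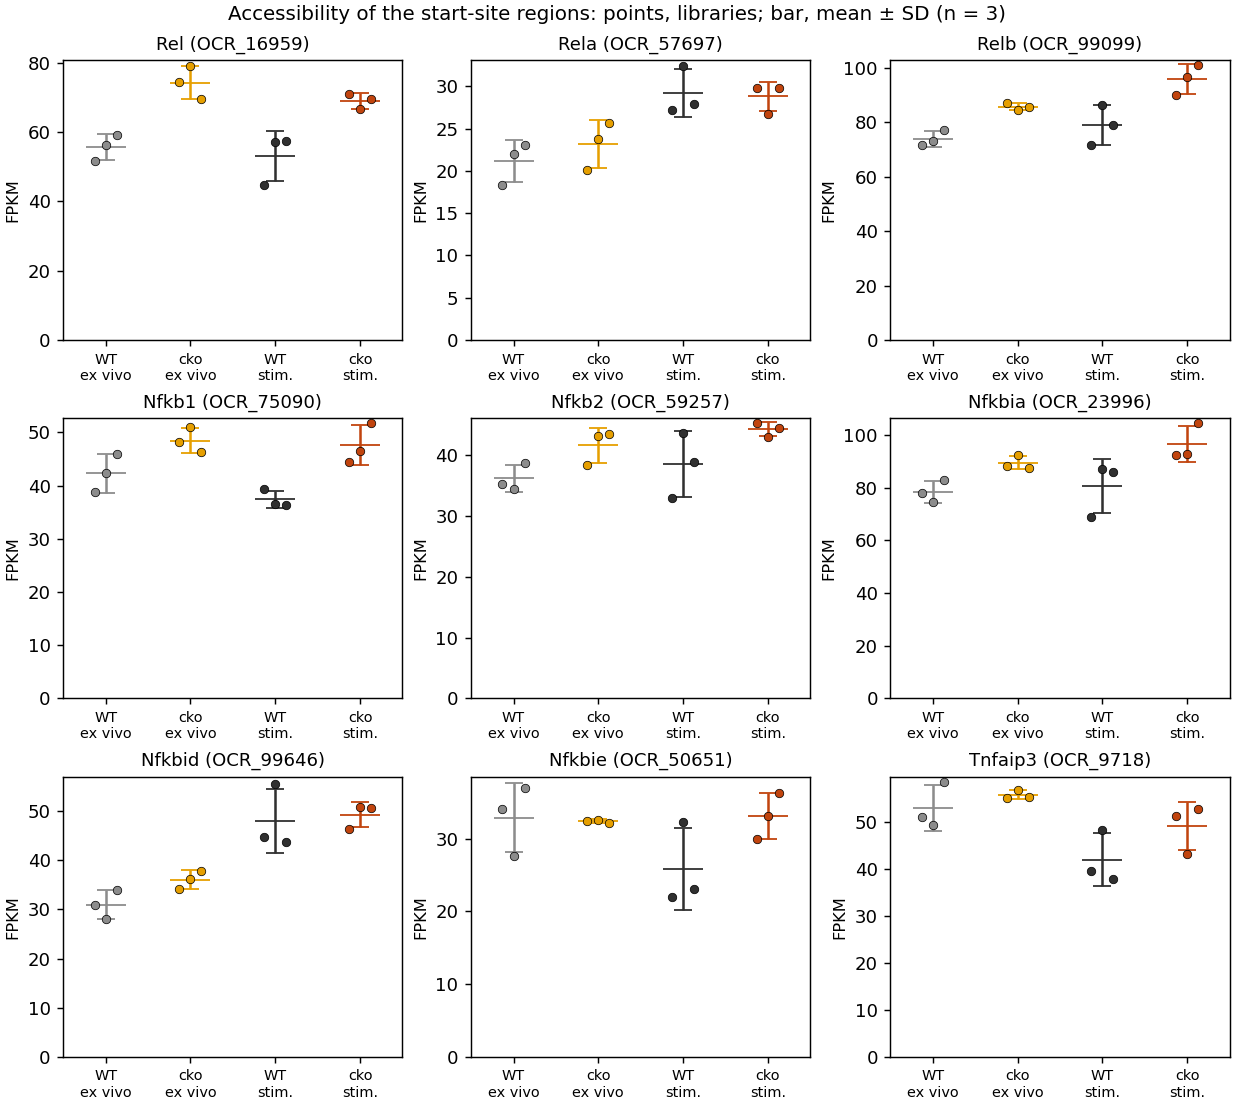
FPKM of the strongest start-site region of each of the 9 genes; the x axis gives the 4 groups (cko, Ikzf1-cko; stim., stimulated), points are the 3 libraries of a group, and the bar is the mean with its SD. The Nfkbid libraries rise from 28.0 to 37.9 FPKM ex vivo to 43.7 to 55.6 FPKM after stimulation, with no overlap, whereas the Relb and Nfkbia start sites stay at 69 FPKM or more in every library.

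Stimulation of WT Treg, the comparison that asks how T cell receptor and CD28 signals change this chromatin, closed more member regions than it opened. Of the 94 member regions with enough reads to be tested, out of 69957 tested regions, 12 were called (adjusted p under 0.05 and more than 2-fold), 5 higher and 7 lower, where 20% of all tested regions were called, 17.7% higher and 2.32% lower. By adjusted p alone 16 rose and 34 fell, against 26.9% and 20.7% of all tested regions. Of the 34 that fell, 18 were at Nfkb1 and 8 at Tnfaip3, and all 7 called lower were at these genes. In the windows of the other genes together more regions rose than fell, and all 5 called higher were there. In Ikzf1-cko Treg 10 were called, 4 higher and 6 lower, where 3.65% of all tested regions were called, 3.02% higher and 0.632% lower, and by adjusted p alone 16 rose and 29 fell, against 12% and 11.5%. The median log2 fold change of member regions was -0.16 in WT and -0.18 in Ikzf1-cko Treg, where the medians of all tested regions were 0.04 and 0.06. Of the 34257 regions that reached 3.6 CPM in all 12 libraries, 3672 rose and 12241 fell in WT by adjusted p, with a median of -0.19. In Ikzf1-cko Treg 4951 of them rose and 7029 fell, with a median of -0.04. More falls than rises in WT were thus not particular to the member regions. The low share of reads in strong regions moved with stimulation in WT. A loess normalization against abundance gave 19 that rose and 23 that fell in WT, where 11783 and 10961 of all 69957 tested regions did so. TMM gave 11 and 32 and DESeq2 8 and 27 in Ikzf1-cko Treg. Of all tested regions 6141 rose and 9447 fell there with TMM, and 4391 and 5459 with DESeq2. The other 22 member regions had too few reads to be tested, with mean FPKM between 5.10 and 13.4.

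Nfkb1, which encodes p105, the precursor of p50 and which holds 32 of the 94 tested regions, closed at many of them. Summed over its 41 regions, reads scaled to the library total (CPM) were 395, 433 and 457 in ex vivo WT, 265, 322 and 275 in stimulated WT, 520, 519 and 481 in ex vivo Ikzf1-cko and 359, 379 and 399 in stimulated Ikzf1-cko Treg. The stimulated libraries of each genotype lay below all ex vivo libraries of that genotype. In such bulk libraries fewer cells with an open region and less opening per cell cannot be told apart. Of its 32 tested regions 18 fell and 0 rose in WT, and 17 fell and 0 rose in Ikzf1-cko Treg by edgeR; DESeq2 gave 16 fell and 0 rose in each, and at an unadjusted p under 0.05 the counts that rose were 1 in WT and 0 in Ikzf1-cko. The closed regions were spread along the gene body, with 5 called in WT and 3 in Ikzf1-cko Treg, each in an intron. OCR_75069, OCR_75070, OCR_75084 and OCR_75067, and OCR_75058, OCR_9712 and OCR_9713 below, are described as further called or interacting regions that were chosen after their values were seen. The start site (OCR_75090) changed less, from 38.7, 42.3 and 46.0 FPKM to 39.3, 36.6 and 36.4 FPKM in WT, groups that overlapped (log2 fold change -0.18 ± 0.09 SE, edgeR adjusted p = 0.094).

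OCR_75069, in an intron 60.3 kb from the 5′ end of Nfkb1, was called lower in both genotypes. It measured 26.8, 22.8 and 32.7 FPKM in ex vivo WT and 12, 11.5 and 9.64 FPKM in stimulated WT Treg. Its Ikzf1-cko libraries measured 23.1, 33.9 and 31.1 FPKM ex vivo and 14.7, 11.5 and 14.2 FPKM after stimulation. Every stimulated library was below every ex vivo library, 2.48-fold lower in WT (log2 fold change -1.31 ± 0.23 SE, adjusted p = 4.9e-05) and 2.17-fold lower in Ikzf1-cko (-1.12 ± 0.18, adjusted p = 2.6e-05; edgeR). The intronic OCR_75084, 15.9 kb from the 5′ end, fell from 33.3, 32.9 and 31.1 FPKM to 9.29, 14.1 and 12.2 FPKM in WT (-1.45 ± 0.20, edgeR adjusted p = 1.1e-06). The Ikzf1-cko libraries fell from 34.0, 24.5 and 21.4 FPKM to 14.2, 14.8 and 15.1 FPKM, short of 2-fold (-0.87 ± 0.16, edgeR adjusted p = 1.4e-04). OCR_75070, called lower in WT (-1.09 ± 0.13, edgeR adjusted p = 6.1e-08), is one of 3 called member regions with stretches that occur elsewhere in mm9: 212 of its 1182 bases matched other places at 90% identity over at least 100 bases, and the part of such reads in its values was not tested. OCR_75072 was called lower in Ikzf1-cko Treg, from 32, 30.2 and 24.3 FPKM ex vivo to 12.3, 14.4 and 14.9 FPKM after stimulation (-1.06 ± 0.13, edgeR adjusted p = 5.6e-07), and it fell short of 2-fold in WT (-0.77 ± 0.19, edgeR adjusted p = 0.0011). Without the first Ikzf1-cko library of either state, or with loess, its fold change in Ikzf1-cko also missed 2-fold (-0.97 to -0.99).

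Tnfaip3, the gene of the ubiquitin editor A20, which dampens NF-kB signals, closed at its 3′ end in both genotypes. Of its 12 tested regions 8 fell and 1 rose in each genotype by adjusted p. OCR_9711, whose sequence is printed above, lies 16.1 kb from the 5′ end and downstream of the gene. It measured 37.1, 40.6 and 44.6 FPKM in ex vivo WT and 11.2, 17.8 and 14.9 FPKM in stimulated WT Treg. In Ikzf1-cko Treg it measured 49.0, 48.7 and 45.7 FPKM ex vivo and 18.9, 22 and 19.3 FPKM after stimulation. No stimulated library reached an ex vivo library, and the fall was 2.83-fold in WT (-1.50 ± 0.14, adjusted p = 6.8e-10) and 2.39-fold in Ikzf1-cko Treg (-1.26 ± 0.11, adjusted p = 5.3e-10; edgeR). Its neighbour OCR_9712, the other region called lower in both genotypes, fell from 27.3, 28.4 and 28.2 FPKM to 9.46, 15.7 and 10.1 FPKM in WT (-1.25 ± 0.15, edgeR adjusted p = 6.8e-08). Of its 909 bases 635 matched other places in mm9, as did 196 of the 741 bases of OCR_9711, and the part of reads from such copies was not tested. OCR_9713, over an exon and with no such match, was called in Ikzf1-cko Treg, from 28.8, 30.1 and 29.0 FPKM to 14.8, 11.6 and 12.8 FPKM (-1.17 ± 0.19, edgeR adjusted p = 2.5e-05), and in WT fell from 29.5, 22.4 and 35.2 FPKM to 9.70, 20.8 and 18.3 FPKM (-0.86 ± 0.22, edgeR adjusted p = 0.0020). At the start site (OCR_9718) the WT libraries fell from 51.1, 49.4 and 58.6 FPKM to 39.6, 48.4 and 38.0 FPKM, 1.27-fold and with no overlap (-0.34 ± 0.09, edgeR adjusted p = 0.0030), whereas loess left -0.063 (adjusted p = 0.58).

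**Figure D2:**
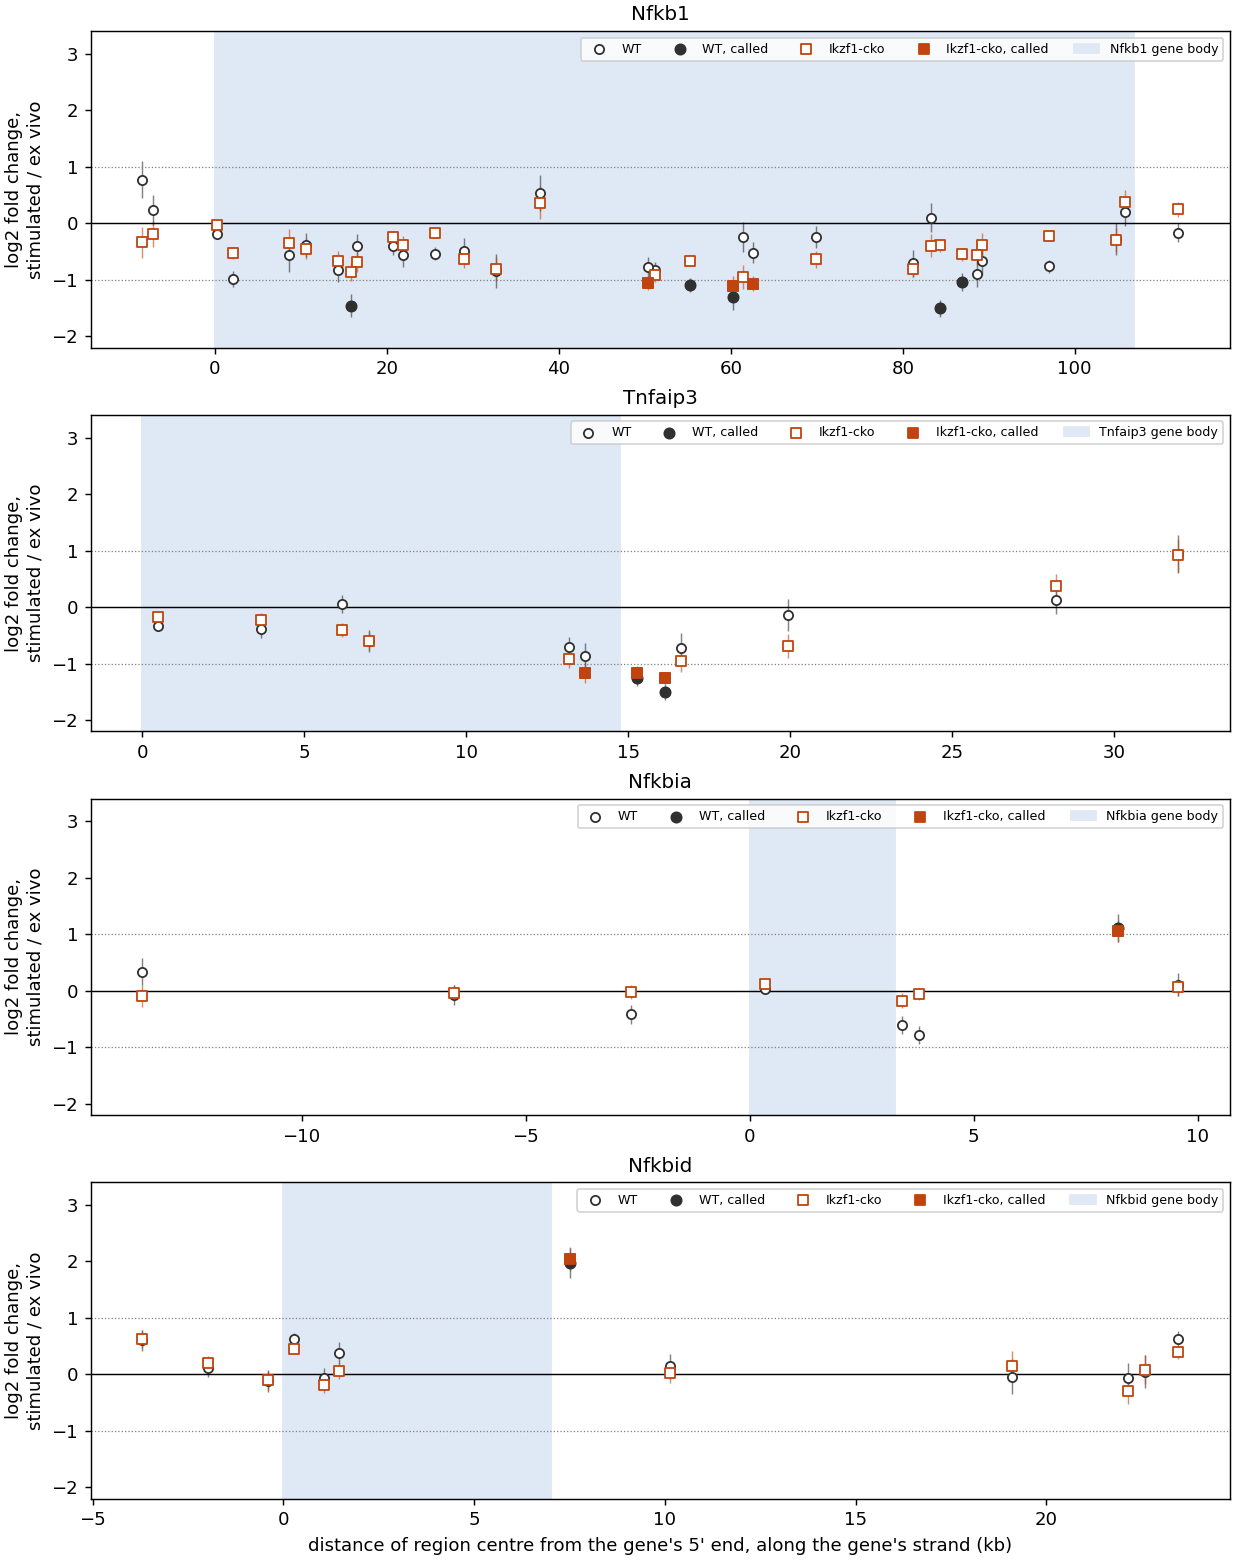
Response to stimulation of the tested regions at Nfkb1, Tnfaip3, Nfkbia and Nfkbid; the y axis is the log2 fold change of stimulated against ex vivo Treg with its SE, the x axis the distance of the region's centre from the gene's 5′ end in kb along its strand, filled symbols are called regions and dotted lines mark 2-fold. Closed regions run along the body of Nfkb1 and cluster at the 3′ end of Tnfaip3, and at Nfkbid a single region just past the gene stands at 1.97 in WT and 2.04 in Ikzf1-cko Treg.

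Nfkbid encodes IkBNS, a nuclear IkB protein that is known to act with c-Rel in the induction of Foxp3, and it was the gene whose start site rose most on stimulation. The start site (OCR_99646) rose from 31.0, 28.0 and 33.9 FPKM to 44.8, 55.6 and 43.7 FPKM in WT (log2 fold change 0.63 ± 0.10 SE, edgeR adjusted p = 1.2e-05). The Ikzf1-cko libraries rose from 34.1, 36.2 and 37.9 FPKM to 46.4, 50.9 and 50.7 FPKM (0.46 ± 0.09, edgeR adjusted p = 2.1e-04). Both rises were without overlap and short of 2-fold. OCR_99649, 7.52 kb from the 5′ end and just downstream of the gene, was low ex vivo at 2.25, 3.27 and 1.82 FPKM in WT and 1.95, 2.08 and 2.89 FPKM in Ikzf1-cko Treg. After stimulation it measured 7.53, 9.98 and 11.6 FPKM in WT and 9.59, 10.3 and 8.39 FPKM in Ikzf1-cko Treg. The groups were far apart in both genotypes, with folds of 3.92 in WT (1.97 ± 0.27, adjusted p = 9.6e-07) and 4.12 in Ikzf1-cko (2.04 ± 0.22, adjusted p = 4.2e-08; edgeR), on 9 to 78 reads per library. Genotype made no detectable difference to it (log2 fold change -0.10 ± 0.30 ex vivo and -0.03 ± 0.20 stimulated). Of the 12 tested regions in the Nfkbid window 4 rose and 0 fell in each genotype by edgeR, the same 4 in both. Of these, OCR_99643 lies within the neighbouring gene Hcst, and OCR_99655 covers a start site of the neighbouring gene Aplp1. At an unadjusted p under 0.05 the counts that fell were 0 in WT and 0 in Ikzf1-cko, and DESeq2 gave 0 and 0.

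At Nfkbia, whose product IkBα retains NF-kB in the cytoplasm, the start site measured 69, 87.0 and 85.8 FPKM in stimulated WT Treg, which overlapped the ex vivo values given above (0.03 ± 0.08, edgeR adjusted p = 0.75). With loess it rose in WT (0.33, adjusted p = 1.3e-04) and in Ikzf1-cko Treg (0.16, adjusted p = 0.031). The Ikzf1-cko libraries measured 88.3, 92.3 and 87.6 FPKM ex vivo and 92.5, 92.7 and 104 FPKM after stimulation, just apart (0.11 ± 0.07, edgeR adjusted p = 0.26). OCR_23993, 8.23 kb from the 5′ end and downstream of the gene, rose from 6.54, 6.31 and 5.80 FPKM to 14.6, 16.6 and 8.49 FPKM in WT (1.11 ± 0.25, edgeR adjusted p = 6.2e-04). In Ikzf1-cko Treg it rose from 7.09, 7.25 and 7.75 FPKM to 16.7, 16.2 and 13.4 FPKM (1.06 ± 0.19, edgeR adjusted p = 1.2e-04). All stimulated libraries lay above all ex vivo libraries, although the last of the stimulated WT libraries was close to them. The call in WT was lost without the second stimulated WT library (0.93) and with counts thinned to the smallest library (0.99).

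In the Rela window accessibility rose, but of its 5 tested regions only the start site lies on Rela. OCR_57698 lies just downstream of the gene. OCR_57699 and OCR_57700 lie within the neighbouring gene Sipa1, and OCR_57701 covers a start site of Sipa1. Each of the 5 rose in WT and 4 rose in Ikzf1-cko Treg by adjusted p. In either genotype 0 fell by edgeR or DESeq2 or at an unadjusted p under 0.05. DESeq2 gave 3 and 2 that rose, thinned counts 3 and 2, and TMM 5 and 2. The start site went from 18.3, 22 and 23.0 FPKM to 27.3, 32.4 and 28.0 FPKM in WT (0.45 ± 0.11, edgeR adjusted p = 0.0014) and from 20.1, 23.7 and 25.6 FPKM to 29.8, 26.8 and 29.8 FPKM in Ikzf1-cko Treg (0.32 ± 0.09, edgeR adjusted p = 0.012), with no overlap in either. The rise in Ikzf1-cko Treg did not pass with TMM (0.26), DESeq2 (0.29) or thinned counts (0.097), or without the first ex vivo (0.22), the first stimulated (0.30) or the last stimulated Ikzf1-cko library (0.29). The called region of the window, OCR_57699, lies within the neighbouring gene Sipa1, 23.8 kb from the 5′ end of Rela. It rose from 4.67, 6.90 and 5.02 FPKM to 13.8, 14.3 and 9.34 FPKM in WT (1.17 ± 0.18, edgeR adjusted p = 7.3e-06) and from 3.98, 4.18 and 4.30 FPKM to 8.96, 7.59 and 8.54 FPKM in Ikzf1-cko Treg (1.01 ± 0.17, edgeR adjusted p = 3.5e-05). The call in Ikzf1-cko Treg sat at the 2-fold limit and was lost with TMM (0.95) and DESeq2 (0.98), and without the first Ikzf1-cko library of either state or the last stimulated one (0.96 to 0.99).

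At Rel, the gene of c-Rel, 2 of 8 tested regions rose in each genotype by adjusted p, while in Ikzf1-cko Treg 1 fell, OCR_16951 downstream of the gene (-0.82 ± 0.20, edgeR adjusted p = 0.0029), which was picked out after its values were seen. OCR_16954, in an intron 16.5 kb from the 5′ end, rose in WT from 5.44, 6.87 and 5.26 FPKM to 11.1, 13.4 and 12.2 FPKM (1.05 ± 0.18, edgeR adjusted p = 2.5e-05), a call that was lost without the last ex vivo WT (0.96) or the second stimulated WT library (0.98). In Ikzf1-cko Treg it started higher, at 8.90, 9.52 and 11 FPKM, and reached 11.4, 13.8 and 15.5 FPKM (0.48 ± 0.13, edgeR adjusted p = 0.0076). That rise was lost with DESeq2 (0.45), with thinned counts (0.03) and without the first ex vivo (0.41) or the last stimulated Ikzf1-cko library (0.37). The difference between these responses did not pass the test of the interaction (-0.57 ± 0.22, edgeR adjusted p = 0.11). OCR_16962, 15.6 kb upstream, held 11 to 55 reads per library and rose from 4.18, 3.14 and 2.76 FPKM to 5.56, 9.39 and 5.75 FPKM in WT (1.07 ± 0.38, edgeR adjusted p = 0.021). Ikzf1-cko libraries rose from 2.32, 5.03 and 3.04 FPKM to 7.07, 7.84 and 9.48 FPKM (1.24 ± 0.31, edgeR adjusted p = 0.0043). Loess brought its WT value down to 0.15 and its Ikzf1-cko value to 0.83, and the WT call was also lost without the second (1.04) or the third (0.94) ex vivo WT library. In Ikzf1-cko Treg the value without the first ex vivo library was 1.00 and no longer passed. The Rel start site showed no detectable response, with 44.8, 57.1 and 57.4 FPKM in stimulated WT Treg (-0.08 ± 0.08, edgeR adjusted p = 0.45; 0.20 with loess).

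Relb, Nfkb2 (the gene of p100, the precursor of p52) and Nfkbie (IkBε) had 0 called regions in either genotype by edgeR or DESeq2, of 4, 5 and 8 tested. With no filter on low counts edgeR called Relb OCR_99100 higher in both genotypes and Nfkb2 OCR_59260 lower in WT. At an unadjusted p under 0.05 there were 0, 3 and 6 in WT and 1, 2 and 5 in Ikzf1-cko Treg. The region with the smallest p in the Nfkb2 window, OCR_59259, lies downstream of Nfkb2 within the neighbouring gene Psd. It measured 16.0, 13.7 and 11.9 FPKM in ex vivo and 10.7, 7.25 and 7.46 FPKM in stimulated Ikzf1-cko Treg, with no overlap (-0.73 ± 0.14, edgeR adjusted p = 2.9e-04). The region with the smallest p in the Nfkbie window, OCR_50653, covers the start site of the adjacent gene Slc35b2. It fell from 23.7, 27.8 and 25.2 FPKM to 18.0, 16.6 and 18.1 FPKM in Ikzf1-cko Treg (-0.54 ± 0.09, edgeR adjusted p = 2.3e-05). None of the 14 tested regions over a start site of the 9 genes was called in any comparison by edgeR or DESeq2, while at an unadjusted p under 0.05 there were 7 in the WT response, 6 in the Ikzf1-cko response, 6 between the genotypes ex vivo, 9 between them after stimulation and 2 in the interaction. Of all 13211 tested start-site regions 4.94%, 0.946%, 1.14%, 5.5% and 0.621% were called in these comparisons, so 0 of 14 is near the general share.

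The responses of the genotypes to stimulation, which share no library, followed each other across member regions. Over the 94 regions the log2 fold changes had Pearson's r = 0.85 and Spearman's rho = 0.82, and 79 (84.0%) had the same sign, where all 69957 tested regions gave r = 0.67, rho = 0.67 and 74.0% of the same sign. These are descriptions over regions that share libraries, base composition and, for neighbours, a gene. Of the regions called lower, 3 were called in both genotypes (OCR_75069, OCR_9711 and OCR_9712), out of 7 in WT and 6 in Ikzf1-cko Treg. Of those called higher, 4 were called in both (OCR_16962, OCR_23993, OCR_57699 and OCR_99649), out of 5 in WT and 4 in Ikzf1-cko Treg.

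**Figure D3:**
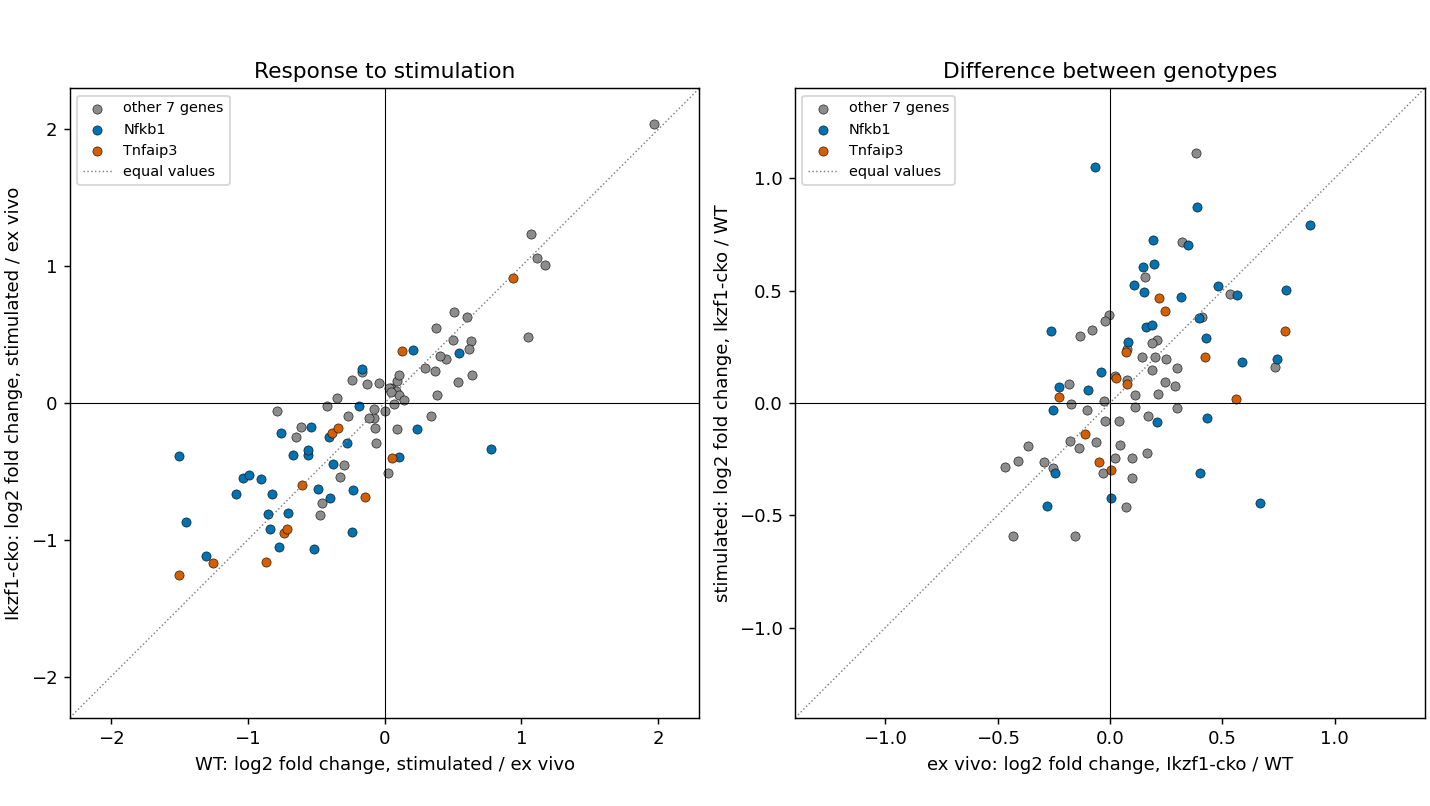
Log2 fold changes of the 94 tested member regions; on the left the response to stimulation in WT (x axis) and Ikzf1-cko Treg (y axis), on the right the difference of Ikzf1-cko from WT ex vivo (x axis) and after stimulation (y axis), with equal values on the dotted line and each point a region. On the left most points lie near the line (r = 0.85), with most Nfkb1 and Tnfaip3 regions below 0 in both genotypes, and on the right the points scatter more widely (r = 0.47).

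Between the genotypes ex vivo, the comparison that asks what loss of Ikaros does to unstimulated Treg, 0 of the 94 member regions were called by edgeR or DESeq2, where 4.63% of all tested regions were called, 0.588% higher and 4.04% lower. At an unadjusted p under 0.05 there were 31, and by adjusted p 16 were higher and 0 lower in Ikzf1-cko Treg, against 8.78% and 12.7% of all tested regions. In 30 member regions all 3 Ikzf1-cko libraries lay above all 3 WT libraries and in 2 they lay below, where 14.9% and 21.0% of all tested regions did so. The median difference was 0.11 against -0.13 over all tested regions. With TMM both medians moved up, to 0.23 and -0.02, and member regions stayed above the rest. Of the 34257 regions that reached 3.6 CPM in all 12 libraries, 5487 were higher and 3944 lower by adjusted p, with a median of 0.04. Better covered regions in general were thus also more often higher than lower. The differences that passed were below 2-fold, and 7 of the 16 were at Nfkb1. The Rel start site measured 74.5, 79.0 and 69.4 FPKM in Ikzf1-cko against the WT values of 51.7, 56.3 and 59.1 FPKM, 1.33-fold higher with no overlap (0.41 ± 0.08, edgeR adjusted p = 2.8e-04). The intronic Rel region OCR_16954 was 1.66-fold higher (0.73 ± 0.16, edgeR adjusted p = 0.0016; 1.01, and then called, with thinned counts). Rel lies 12 Mb from Ikzf1 on chromosome 11, so DNA linked to the floxed allele and the loss of Ikaros cannot be told apart there. In the introns of Nfkb1, OCR_75072 measured 14.1, 17.0 and 18.7 FPKM in WT and 32, 30.2 and 24.3 FPKM in Ikzf1-cko Treg, again with no overlap (0.78 ± 0.14, edgeR adjusted p = 1.1e-04), and OCR_75067 went the same way (0.75 ± 0.14, edgeR adjusted p = 2.7e-04). The start site of Tnfaip3 showed no detectable difference, with 55.2, 56.9 and 55.5 FPKM in Ikzf1-cko Treg (0.07 ± 0.08, edgeR adjusted p = 0.56).

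After stimulation 2 member regions were called between the genotypes, both higher in Ikzf1-cko Treg, where 21.3% of all tested regions were called, 1.16% higher and 20.2% lower. By adjusted p 24 were higher and 2 lower, against 20.4% and 30.7%, and 12 of the 24 were at Nfkb1. The median difference of member regions was 0.11. Of the 34257 regions that reached 3.6 CPM in all 12 libraries, 12564 were higher and 3377 lower, with a median of 0.18. A higher value in Ikzf1-cko Treg was thus not particular to the member regions. With the loess normalization 13 member regions were higher and 7 lower, where 9473 and 10672 of all 69957 tested regions were. Loess left neither of the 2 calls and gave 1 other, Rel OCR_16962 (1.33, against 0.24 as reported here).

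The first called region was OCR_75062, in an intron of Nfkb1 84.3 kb from the 5′ end. Ex vivo it measured 47.2, 54.1 and 55.2 FPKM in WT and 53.3, 52.0 and 45.1 FPKM in Ikzf1-cko Treg. After stimulation it measured 12.3, 24.4 and 19.5 FPKM in WT and 38.4, 36.7 and 39.8 FPKM in Ikzf1-cko Treg. The genotypes overlapped ex vivo and were separate after stimulation, when the region was 2.07-fold higher in Ikzf1-cko (1.05 ± 0.15, edgeR adjusted p = 2.1e-06). It fell 2.84-fold in WT (-1.50 ± 0.15, adjusted p = 3.2e-09) and 1.31-fold in Ikzf1-cko Treg (-0.39 ± 0.11, adjusted p = 0.010; edgeR). The difference between these responses was 1.11 ± 0.19 on the log2 scale (edgeR interaction, adjusted p = 4.9e-04), and it was the 1 member region called in that test, which called 1.98% of all tested regions, 0.579% higher and 1.4% lower in Ikzf1-cko Treg. By adjusted p 3 member regions passed it, all higher, against 5.66% of all tested regions. Without the first stimulated WT library, the lowest of the 3, the genotype difference was 0.80 and the interaction 0.86, both below 2-fold. Loess gave 0.77 and 0.91, and thinned counts 0.80 and 0.79.

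The second was OCR_23994, which lies 3.79 kb from the 5′ end of Nfkbia, just past its 3′ end, and holds a match to the kB consensus. Ex vivo it measured 42.9, 45.6 and 41.3 FPKM in WT and 55.8, 63.3 and 49.6 FPKM in Ikzf1-cko Treg. After stimulation it measured 19.1, 32.4 and 24.0 FPKM in WT and 58.0, 54.2 and 50.9 FPKM in Ikzf1-cko Treg. The stimulated WT libraries were below all 9 others, 2.16-fold below stimulated Ikzf1-cko Treg (1.11 ± 0.15, edgeR adjusted p = 1.2e-06). The region fell in WT (-0.79 ± 0.16, edgeR adjusted p = 2.9e-04), and no change was detected in Ikzf1-cko Treg (-0.06 ± 0.11, edgeR adjusted p = 0.75). The interaction was 0.73 ± 0.20 (edgeR adjusted p = 0.022). The interaction did not pass with loess (0.54), with thinned counts (0.67) or without the second ex vivo WT (0.69), the first stimulated WT (0.55) or the last stimulated WT library (0.70). Without the first stimulated WT library the genotype difference was 0.93, and with loess 0.89, both below 2-fold. Without the second stimulated WT library the fall in WT reached -1.02.

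**Figure D4:**
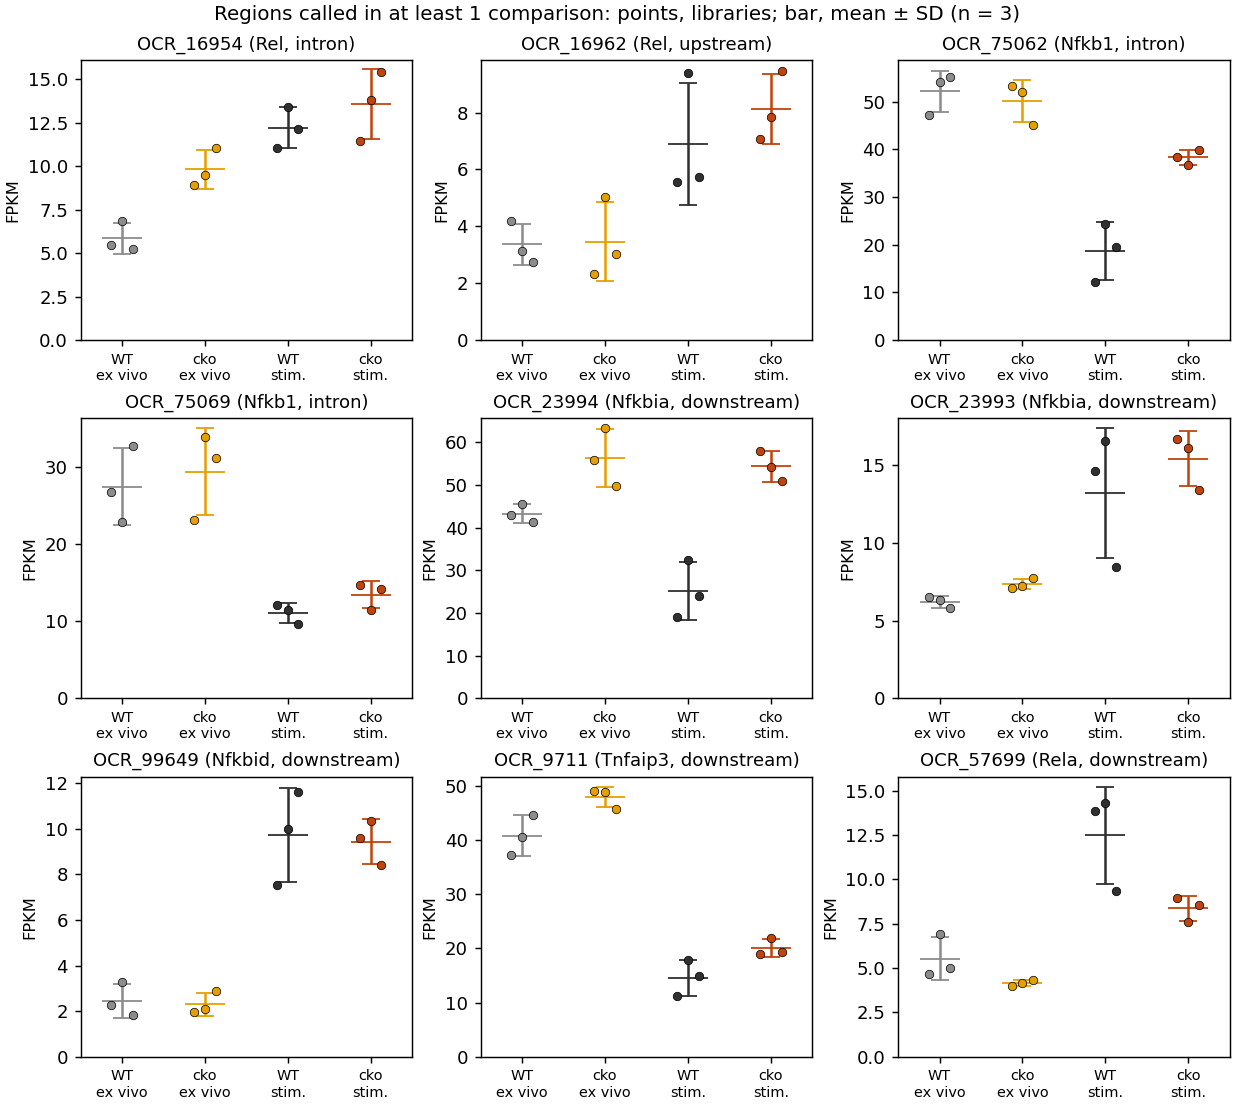
FPKM of 9 member regions called in at least 1 comparison; the x axis gives the 4 groups (cko, Ikzf1-cko; stim., stimulated), points are the 3 libraries of a group, and the bar is the mean with its SD. OCR_75062 and OCR_23994 are lowest in stimulated WT Treg, whereas OCR_99649, OCR_9711 and OCR_75069 move alike in both genotypes.

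OCR_75058, over an alternative start site within Nfkb1, also passed the interaction test below 2-fold (0.54 ± 0.15, edgeR adjusted p = 0.021), but not with TMM (0.49), loess (0.32) or thinned counts (0.54), or without the last ex vivo WT (0.45), last stimulated WT (0.45) or last stimulated Ikzf1-cko library (0.49). It fell from 26.8, 25.0 and 30.0 FPKM to 17.8, 16.4 and 14.0 FPKM in WT, with no overlap (-0.76 ± 0.11, edgeR adjusted p = 4.9e-06). In Ikzf1-cko Treg it measured 32.6, 32.7 and 28.1 FPKM ex vivo and 25.6, 26.4 and 28.2 FPKM after stimulation, and these groups overlapped (-0.22 ± 0.09, edgeR adjusted p = 0.067). Among the main start sites, 7 of the 9 were higher in stimulated Ikzf1-cko than in stimulated WT Treg by adjusted p (log2 fold changes 0.21 to 0.38), where 42.9% of all tested start-site regions were higher with a median of 0.18, and Rela and Nfkbid were not detectably different (-0.02 ± 0.10 and 0.04 ± 0.09). With loess the differences of Rel, Relb, Nfkb1, Nfkb2, Nfkbia and Tnfaip3 changed sign, to between -0.19 and -0.02, and Nfkbid moved to -0.31. The 2 regions that were lower in stimulated Ikzf1-cko Treg by adjusted p were both in the Rela window, within the neighbouring gene Sipa1. They were OCR_57699 (-0.59 ± 0.16, edgeR adjusted p = 0.0028) and OCR_57700 (-0.59 ± 0.23, edgeR adjusted p = 0.031).

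Other genes of the pathway, 38 in all, were counted in the same way. They comprise further IkB proteins, kinases, adaptors and ubiquitin editors, and 321 of their 426 regions were tested. On stimulation 5 of these regions were called higher and 6 lower in WT, and 4 higher and 1 lower in Ikzf1-cko Treg. These are 3.43% and 1.56% of the tested regions of the list, where 20% and 3.65% of all tested regions were called. By direction 17.7% of all tested regions were called higher and 2.32% lower in WT, and 3.02% and 0.632% in Ikzf1-cko Treg. Ex vivo 4 were called higher and 2 lower in Ikzf1-cko Treg, and after stimulation 9 were called higher and 3 lower. The ex vivo and stimulated counts are 1.87% and 3.74% of the tested regions of the list, below the 4.63% and 21.3% of all tested regions given above. Of all tested regions 0.588% were called higher and 4.04% lower ex vivo, and 1.16% and 20.2% after stimulation. Between the genotypes the list thus falls below the general share in regions called lower and not in those called higher. In the responses to stimulation it falls below the general share in regions called higher, in both genotypes. The 9 called higher after stimulation include an intron of Tnip3, whose product binds A20, at 17.8 ± 0.46 FPKM in WT and 39.8 ± 2.39 FPKM in Ikzf1-cko Treg (SD, n = 3; log2 fold change 1.16, edgeR adjusted p = 1.7e-08). They also include an intron of Nfkbiz, which encodes the nuclear protein IkBζ, at 18.7 ± 2.08 against 42.5 ± 6.85 FPKM (1.20, edgeR adjusted p = 3.0e-05). An intron of Zc3h12a, the gene of the RNase regnase-1, measured 21.8 ± 2.63 against 44.6 ± 6.16 FPKM (1.02, edgeR adjusted p = 3.2e-05). In the opposite direction, an intron of Prkcq, the gene of a kinase that acts downstream of the T cell receptor, was lower in Ikzf1-cko Treg both ex vivo (OCR_60340, 11 ± 2.02 against 3.55 ± 1.74 FPKM; -1.60, edgeR adjusted p = 0.0023) and after stimulation (10.2 ± 2.32 against 4.85 ± 0.67 FPKM; -1.06, edgeR adjusted p = 0.021).

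Motif letters were counted in the member regions and in all tested regions. In the central 300 bases GGGAA occurred in 59.6% of the 94 regions and 59.3% of all tested regions, GGAAA, the core of NFAT sites, in 64.9% and 60.3%, TGANTCA in 10.6% and 13.8%, and TGTTTAC, a forkhead motif, in 3.19% and 3.78%. The kB consensus occurred in 10 member regions, 10.6%, and in 6.49% of all tested regions. Both strands were searched, and a match to the kB consensus can hold GGGAA, so these counts overlap. In the 300 bases before the annotated starts, the kB consensus was matched 3 times at Nfkb2, 2 times each at Rel, Relb and Nfkbia and once at Nfkbie, and was not matched at Rela, Nfkb1, Nfkbid and Tnfaip3. It was found in 4.88% of 22364 promoters of the same length. These counts describe letters in a window and were not tested.

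The start sites whose accessibility ran most like that of a member were sought over the 12 libraries among 13211 start-site regions. The most alike to Tnfaip3 were those of Fbxo24 and Lrch4 (1 region, Pearson's r = 0.96 of log2 CPM), Tgfbr3 (0.96) and Zcwpw1 (0.95), where the median start site had r = 0.16. For Nfkbia they were Rnf185 (0.96), Fahd1 and Hagh (1 region, 0.96) and Zfp672 (0.95), with a median of 0.37. For Rel they were 4933440N22Rik and Hnrnpf (1 region, 0.96), Zfp119b (0.96) and Gart and Son (1 region, 0.95), with a median of 0.36. The 12 libraries share their groups and their spread of reads, and the Tnfaip3 start site itself spanned 0.62 on the log2 scale.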

How the data were processed

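ATAC-seq libraries of sorted YFP+ splenic Treg were made in 4 groups of 3. The authors deposited read counts per region and FPKM computed from them, on 118680 regions called with MACS2 after alignment with Bowtie2 to mm9 (named in the submitters' processing notes, without versions; the study's methods print hg19, whereas labels and coordinates are mm9). FPKM recomputed from counts and library totals matched within 4.3e-12. A log2 table and the authors' own fold changes, F values, p-values and FDR were not used. Columns of 0 libraries were left unmapped.

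Counts scaled to library totals were fitted in 1 edgeR 4.0.16 quasi-likelihood model over the 12 libraries (R 4.3.3, limma 3.58.1; prior df 24.4), keeping regions with 3.6 CPM in at least 3 libraries, with Benjamini-Hochberg adjustment over 69957 regions; SE is the log2 fold change over the square root of F. A region was called at an adjusted p under 0.05 and a log2 fold change over 1. Of each gene the start-site region, the called region with the smallest p per comparison or, with none called, the region with the smallest p was described. On simulated counts with 200 of 69957 regions changed in the ex vivo genotype comparison, 193 were recovered at a log2 fold of 1.5 and 198 at 2, with 0 and 3 false calls. The simulated libraries differed only in depth and in the changed regions, with the same dispersion for all regions. The real libraries also differ in how their reads are spread, so these counts do not measure false calls in the data. The study's methods name 3 biological replicates, but the labels tie no library to a mouse, so p-values measure the spread between these samples, and replicate pairs differed beyond counting noise (chi-square per region 1.19 to 3.36). Motifs were searched on both strands, repeats with blastn 2.17.0 (90% identity over 100 bases), and tables made with Python 3.11.15. Alternatives were TMM, loess (span 0.3), other filters, thinning to 4808916 reads, DESeq2 1.42.0, a replicate block, the compared libraries alone and each library left out. Scaling on reads outside the regions was not used here, since it needs reads outside them. The genes and lists were chosen with earlier results of these data known.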

Additional observations from a re-analysis of the deposited data

Results flagged for a closer look

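The response to stimulation differed between WT and Ikzf1-cko Treg at 3 member regions by edgeR's test of the interaction, each less closed, or not detectably closed, in Ikzf1-cko Treg. These are 3.19% of the tested member regions, below the 5.66% of all tested regions that were higher by this test, where 1.82% were lower. Neither their number nor their direction thus sets the member regions apart. The log2 difference was 1.11 ± 0.19 at the intronic Nfkb1 region OCR_75062 (adjusted p = 4.9e-04), 0.73 ± 0.20 at OCR_23994 downstream of Nfkbia (adjusted p = 0.022) and 0.54 ± 0.15 at OCR_75058 over an alternative start site of Nfkb1 (adjusted p = 0.021). The OCR_23994 and OCR_75058 differences did not pass with loess (0.54 and 0.32) or thinned counts (0.67 and 0.54), and that of OCR_75062 did not pass with thinned counts (0.79). The stimulated WT libraries, on which all 3 rest, also have the lowest share of reads in strong regions (40.7% to 43.5%), and the part of this in the differences was not tested.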

How the results depend on the processing

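The number of member regions called was recomputed under each alternative. Between the genotypes ex vivo it was 1 instead of 0 with TMM, with loess and with thinned counts, and 0 to 1 with a library left out (1 without WT ex vivo replicate 2). After stimulation it was 1 instead of 2 with loess, a region that is not 1 of the 2 (Rel OCR_16962), and 0 to 3 with a library left out (0 without WT stimulated replicate 1). The response of Ikzf1-cko Treg gave 5 instead of 10 when every one of the 12 libraries had to reach 3.6 CPM, and 7 to 12 with a library left out, and that of WT Treg, 12, gave 9 to 14. The filter on all 12 libraries leaves weak regions untested, among them OCR_99649, OCR_23993 and OCR_16962, which were called in this response. The interaction gave 0 instead of 1 with loess and with thinned counts, and 0 to 1 with a library left out (0 without WT stimulated replicate 1). By adjusted p alone the ex vivo count of 16 became 31 with TMM and 6 with thinned counts, and the stimulated count of 24 became 13 with loess. Over all tested regions the ex vivo count of 6145 became 10064 with TMM and 2459 with thinned counts. The stimulated count of 14242 became 9473 with loess. The cause of the other changes was not tested.

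Loess turned the stimulated genotype difference at the start sites of Rel (-0.020), Relb (-0.14), Nfkb1 (-0.019), Nfkb2 (-0.19), Nfkbia (-0.15), Nfkbid (-0.31) and Tnfaip3 (-0.17), and the WT response at Rel (0.20). Of 2044 values recomputed for the named regions 84 had another sign than the value reported. These are the 8 just given, where at least 1 of both values had an adjusted p under 0.05, and 76 where neither had. Of the called values 25 were no longer called, and 3 others became called. Alternatives in which a region was left untested are not among these values. In comparisons of 2 groups OCR_16962 was tested in 15 of 20 alternatives, and OCR_23993 and OCR_99649 in 19. Of 983 values whose reported counterpart had an adjusted p under 0.05, 89 missed it. The median of all regions moved from -0.13 to -0.02 between the genotypes ex vivo with TMM and from -0.11 to -0.0034 after stimulation with DESeq2.

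The labels number replicates alike in each group, but no source says that a number marks libraries of the same sort, and same-numbered libraries did not deviate together (r = -0.39 to 0.30), so the numbers were not taken as pairs. With a replicate block 0 member regions were called between the genotypes ex vivo, 2 after stimulation, 13 in the WT response, 10 in the Ikzf1-cko response and 1 in the interaction. Depth differs between the genotypes, and regions such as OCR_99649 (9 to 78 reads per library) and OCR_16962 (11 to 55) carry wide errors, which cover the spread between libraries. A library left out leaves 2 in its group.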
